A study of Mus musculus with 12 samples.

Results

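Complement is a cascade of blood and tissue proteins that marks microbes and cells for removal. In its classical arm the C1 complex, built of the recognition chains C1qa, C1qb and C1qc and the proteases C1r and C1s, cleaves C4 and C2, whose fragments form the convertase that cleaves C3, while receptors such as CR2 bind deposited C3 fragments and regulators such as SERPING1 and CD55 restrain the cascade. The eye is known to hold complement proteins and a high level of regulators, and in mice *C4b* encodes complement C4 whereas its near copy *C4a* encodes the sex-limited protein. The genes described here are 9 complement components and regulators, *C1qa*, *C1qb*, *C1qc*, *C1ra*, *C4b*, *C3*, *Cr2*, *Serping1* and *Cd55*, found by symbol among the 15838 genes with a value. They were chosen by name, with *C4b* named for a strong difference of its genotype effect between the sexes and *Cr2* for a fall in both sexes, so these particular values are given as a description, without a test.

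RNA came from corneal endothelial cells (CEC), the single layer that pumps fluid out of the cornea, with the Descemet membrane they rest on, dissected from C57BL/6 mice at 10 weeks of age. KO mice were Slc4a11-/-, with exons of this transporter gene removed in every cell and not in CEC alone, and WT mice were Slc4a11+/+. Each sex had 3 libraries of KO and 3 of WT, 12 in all, and no mouse received a treatment. One mouse per library was assumed, since membranes are described both as pairs and as pooled, and p-values measure the spread between libraries, which may be technical.

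The data are coefficients fitted by the authors with limma, a linear model across all genes, without values per library. How deeply each was sequenced is therefore unknown here, and the standard error (SE) carries the spread between libraries. In the comparison of females with males the SE also appears to hold the difference of KO from WT, which blunts that test for genes that change in KO. Levels are given as read counts scaled to the size of the library (CPM) of each group, estimated from the mean and the coefficients without an error of their own. They take the sex coefficient as the mean over both genotypes, the reading that the SE of this coefficient points to, and the other reading serves as a check. KO against WT within a sex does not depend on this, whereas the order of the sexes does, and levels with the coefficient taken as the difference in WT are given where that changes what is said of them. All fold changes are log2FC of KO against WT. *Slc4a11* had a log2FC of -1.83 (SE 0.22) in males and -2.89 (SE 0.22) in females, the direction of the labels, and all 10 corneal endothelium markers had a value, of which *Col8a2*, a Descemet membrane collagen, had the highest mean with 7099.7 CPM. In bulk RNA, fewer cells of a type and less RNA per cell cannot be told apart.

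Mouse C4 comes from a pair of near-identical genes, so the letters that tell them apart are shown before the values. *C4b* (ENSMUSG00000073418) lies on the minus strand at chr17:34728380-34743882 (GRCm38) and *C4a* on the same strand 65210 bases away. Over 5207 aligned bases of the *C4b* coding sequence, 5006 were identical in the *C4a* transcript, 96.1%, and 35.2% of the 50-base stretches of the *C4b* transcript, the length of 1 read, also occur in *C4a*. The 60 bases with the most differences, in exon 21 of 41 of both transcripts, are printed in the direction of the gene with the 13 differing bases in capitals, *C4b* at chr17:34735430-34735489 and *C4a* at chr17:34816086-34816145.
C4b: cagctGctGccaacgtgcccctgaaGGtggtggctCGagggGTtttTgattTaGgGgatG
C4a: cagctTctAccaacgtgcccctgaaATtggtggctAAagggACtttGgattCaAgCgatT
The genes had separate values. *C4a* had a mean of 1.0 CPM against 21.8 CPM for *C4b*, or per kilobase of exon 0.162 against 3.82 CPM. How the authors' counting treated reads that match both is not given in the sources used here.

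*C4b*, which carries the cleavage step after C1, was estimated at 44.6 CPM in WT males, 3.70 in KO males, 27.9 in WT females and 48.8 in KO females. With the sex coefficient taken as the difference in WT these levels were 20.8, 1.72, 59.7 and 105 CPM in the same order. Male KO stood far below the other groups in both readings, and the highest group was 13.2 times the lowest in the first and 60.6 times in the second, while the order of the WT groups turned. Its log2FC was -3.59 (SE 0.55, 95% confidence interval -4.78 to -2.41) in males, 12.1-fold lower in KO, and 0.81 (SE 0.27, interval 0.22 to 1.39) in females, 1.75-fold higher in KO. The effect in females minus that in males was 4.40 (SE 0.62, interval 3.08 to 5.72), the value for which the gene was named. The SE in males was above that in females, and larger than that of 90.6% of all genes. Which libraries carry this spread was not tested, since coefficients alone were at hand. With unequal errors the mean effect of both sexes, -1.39 (SE 0.31), is not independent of the difference and is given without a p. *C4a* did not share these values: its log2FC was -0.35 (SE 0.53, limma adjusted p = 0.723) in males and -0.23 (SE 0.68, adjusted p = 0.896) in females.

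**Figure D1:**
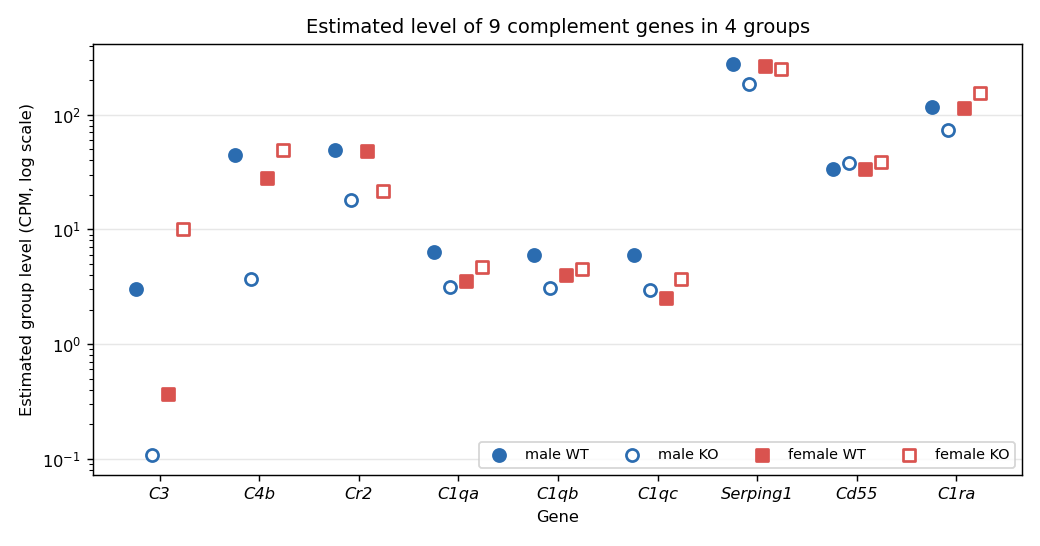
Estimated level of the 9 complement genes (CPM, log axis) in WT and KO of each sex, 3 libraries a group, with no error bar because the estimate combines coefficients of 2 fits. Male KO is the lowest group for 7 of the 9 genes (8 in the other reading of the sex coefficient), *C4b* runs from 3.70 to 48.8 CPM, and *Cd55* lies between 33.3 and 38.3 CPM.

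*Cr2* encodes complement receptor 2 and, by splicing, receptor 1 of the mouse, and is best known from B cells and follicular dendritic cells. The gene (ENSMUSG00000026616) lies on the minus strand at chr1:195136811-195176716. It was estimated at 48.7 CPM in WT males, 18.1 in KO males, 48.1 in WT females and 21.5 in KO females. Both KO groups were below both WT groups, and the WT groups of the 2 sexes lay side by side. The log2FC was -1.42 (SE 0.12, interval -1.69 to -1.16) in males and -1.16 (SE 0.12, interval -1.42 to -0.90) in females, 2.68-fold and 2.24-fold lower in KO. The effect in females minus that in males was 0.26 (SE 0.17, interval -0.10 to 0.63). It is given without a p, because *Cr2* was named for falling in both sexes and the difference is made of those values. The sex comparison gave 0.12 (SE 0.35, adjusted p = 0.953). Its SE, above the 0.09 of the mean KO effect, appears to hold the difference of KO from WT, so this test could miss a difference between the sexes. None of the 10 listed markers of B cells and follicular dendritic cells, *Ms4a1* and *Cd79a* among them, had a value in the tables, and no 50-base stretch of the *Cr2* transcript occurs in another gene.

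The promoter of *Cr2* is shown because this gene was lower in KO of both sexes. Its neighbours also tended to be lower, as given below, but none was past the test in both sexes. RefSeq (GRCm38.p6) gives 300 bases, from 250 before to 50 after the start, at chr1:195176670-195176969 on the minus strand, printed in lower case because none of the 5 motifs searched occurs in it.
Cr2: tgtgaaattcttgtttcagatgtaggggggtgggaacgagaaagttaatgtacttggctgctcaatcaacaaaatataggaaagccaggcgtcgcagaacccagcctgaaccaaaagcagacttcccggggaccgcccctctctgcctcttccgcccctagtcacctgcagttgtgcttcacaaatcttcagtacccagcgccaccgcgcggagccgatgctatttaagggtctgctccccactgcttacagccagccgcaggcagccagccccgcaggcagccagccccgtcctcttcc
The motifs, read on both strands and with overlaps kept, were the STAT motif (TTCNNNGAA), the interferon response element, the NF-kB motif, the E-box and the TATA box, found in 8.30%, 3.44%, 1.63%, 7.15% and 13.6% of 32851 mouse promoters. Only CACGTG was counted as an E-box. The table held a promoter for 6 of the 9 genes (*C3*, *Cr2*, *C1qb*, *C1qc*, *Cd55* and *C1ra*), and these motifs occurred in that of *C3*, with the TATA box letters TATAAA, and that of *C1ra*, with the STAT motif. In *C3* the letters TATAAA lie after the start, not before it.

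The recognition chains of C1, made chiefly by macrophages and microglia, were low and had similar values. In males *C1qa* had a log2FC of -1.01 (SE 0.42, adjusted p = 0.181), *C1qb* -0.95 (SE 0.36, adjusted p = 0.144) and *C1qc* -1.02 (SE 0.30, adjusted p = 0.0671), none of them past an adjusted p of 0.05. Their values in females were 0.40 (SE 0.42), 0.16 (SE 0.35) and 0.55 (SE 0.34), and the differences between the sexes 1.42 (SE 0.60, adjusted p = 0.420), 1.11 (SE 0.51, adjusted p = 0.478) and 1.57 (SE 0.46, adjusted p = 0.167). Estimated levels of *C1qa* were 6.31 CPM in WT males, 3.13 in KO males, 3.52 in WT females and 4.66 in KO females. *C1qb* and *C1qc* were estimated at 6.03 CPM each in WT males, and the other groups lay between 2.53 and 4.49 CPM. Male WT was thus the highest group for each chain, but with the sex coefficient taken as the difference in WT it was female KO, with 5.96 CPM for *C1qa*, 5.45 for *C1qb* and 4.85 for *C1qc* against 4.94, 4.97 and 4.59 in WT males. The 3 genes stand side by side at chr4:136880129-136898803 on the minus strand, and no 50-base stretch of theirs is shared with another gene.

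Macrophage markers had values of the same sign as these chains. Of 18 listed, 14 had a value, and *Cd163*, *Ly86*, *Trem2* and *P2ry12* had none. In males 13 of the 14 had a negative log2FC (median -0.85), and in females 13 of the 14 had a positive one (median 0.44), whereas the median over all genes was -0.02 in males and 0.01 in females. None passed an adjusted p of 0.05 in either sex by limma, where 5.47% of all genes in males and 1.42% in females did. Under an unadjusted p of 0.05 were 5 in males and 3 in females, as 21.9% and 15.9% of all genes were. *Lyz2*, a lysozyme and the most abundant of the list, had a log2FC of -0.78 (SE 0.45, adjusted p = 0.328) in males and 1.66 (SE 0.39, adjusted p = 0.0556) in females. The summed estimated level of the list was 78.1 CPM in WT males, 46.2 in KO males, 57.9 in WT females and 103 in KO females (60.2, 36.2, 75.2 and 141 in the other reading of the sex coefficient), and the part of these cells in the values of C1q was not tested.

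*C1ra*, the protease that C1q activates first, was much more abundant than the recognition chains, with 37.3 CPM per kilobase of exon on average against 1.86 to 4.08. It lies on the plus strand at chr6:124512405-124523443. Estimated levels were 117 CPM in WT males, 74.1 in KO males, 113 in WT females and 155 in KO females, or 96.4, 61.1, 137 and 189 CPM with the sex coefficient taken as the difference in WT. Male KO was the lowest and female KO the highest group in both readings, and the WT groups lay together only in the first. In males *C1ra* fell, with a log2FC of -0.66 (SE 0.17, limma adjusted p = 0.0416), and in females it was 0.46 (SE 0.17, adjusted p = 0.197). The fall in males missed the threshold when all comparisons were adjusted together (0.0651) and under the Benjamini-Yekutieli adjustment (0.427). The difference between the sexes, 1.12 (SE 0.24, interval 0.60 to 1.63, adjusted p = 0.0635), missed the threshold over all genes and passed it when only genes with a mean of at least 10 CPM were adjusted (0.0409) or when all comparisons were adjusted together (0.0296). Of its 50-base stretches 50.8% also occur in *C1rb* or a related pseudogene, *C1rb* had no value in the tables, and the values of *C1ra* are uncertain to that extent.

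Its promoter is shown for the STAT motif in capitals, TTCCCTGAA, which lies after the RefSeq start, at chr6:124512371-124512670 on the plus strand (RefSeq, GRCm38.p6). The gene start given above is from GENCODE and lies within this stretch, before the RefSeq start.
C1ra: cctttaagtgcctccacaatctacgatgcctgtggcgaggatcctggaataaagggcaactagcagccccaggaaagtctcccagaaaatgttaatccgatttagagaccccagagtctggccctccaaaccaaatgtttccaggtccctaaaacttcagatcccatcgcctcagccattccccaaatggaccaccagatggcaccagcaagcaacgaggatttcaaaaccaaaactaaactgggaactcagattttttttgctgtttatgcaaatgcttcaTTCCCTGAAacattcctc
A match describes letters and not a bound site, and 8.30% of all promoters hold this motif.

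*C3*, the protein on which all arms of the cascade converge, could not be measured with any precision. Its mean was 1.05 CPM, with 9.82% of all genes below it, and the estimated levels were 3.05 CPM in WT males, 0.107 in KO males, 0.366 in WT females and 10.1 in KO females. In the other reading of the sex coefficient they were 0.575, 0.0203, 1.94 and 53.7 CPM, with the order of the WT groups turned. The log2FC was -4.83 (SE 4.06, interval -13.56 to 3.90, adjusted p = 0.504) in males and 4.79 (SE 2.45, interval -0.48 to 10.06, adjusted p = 0.356) in females. The SE in males was larger than that of 99.97% of all genes. The difference between the sexes of 9.62 (SE 4.75, adjusted p = 0.534) did not exceed the spread between libraries.

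Both regulators of the set were abundant. *Serping1*, the C1 inhibitor, had the highest level of the 9 genes, 104 CPM per kilobase of exon on average, and was estimated at 279 CPM in WT males, 186 in KO males, 267 in WT females and 248 in KO females. Its log2FC was -0.59 (SE 0.17, adjusted p = 0.0666) in males and -0.11 (SE 0.17, adjusted p = 0.797) in females, with a difference of 0.48 (SE 0.25, adjusted p = 0.557). *Cd55*, which speeds the decay of convertases on the cell surface, was estimated at 33.6, 37.6, 33.3 and 38.3 CPM in the same order, the narrowest range of the 9 genes. Its log2FC was 0.16 (SE 0.14, interval -0.13 to 0.45) in males and 0.20 (SE 0.14, interval -0.09 to 0.50) in females, and 13.3% of its 50-base stretches also occur in *Cd55b*, which had no value.

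**Figure D2:**
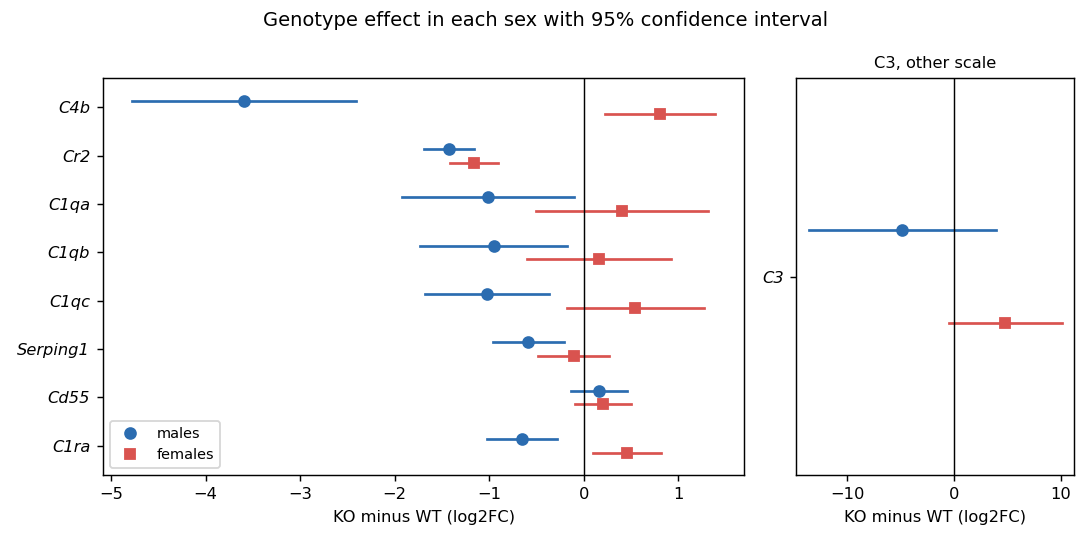
Log2FC of KO against WT with its 95% confidence interval in males (circles) and females (squares) for the 9 complement genes, *C3* on an axis of its own. The intervals of *C4b* lie on opposite sides of 0, those of *Cr2* both lie below 0 and overlap, and those of *Cd55* both span 0.

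Of the 7 genes not named for their values, 1 passed a limma adjusted p of 0.05 in males, *C1ra*, which was lower, where 5.47% of all genes passed in either direction and 3.17% were lower. Under an unadjusted p of 0.05 there were 5 of the 7 in males, with a background of 21.9%. In females 0 passed by limma, with a background of 1.42% in either direction and 0.947% lower, and 1 was under an unadjusted p, with a background of 15.9%. For the difference between the sexes 0 passed, with a background of 0.543% (0.309% higher), and 4 were under an unadjusted p (*C1ra* and the C1q chains), with a background of 10.2%. For the mean of both sexes 0 passed, with a background of 9.07% (5.20% lower), and 1, *Serping1*, was under an unadjusted p, with a background of 27.9%. *C4b* and *Cr2* are left out of these counts because these contrasts hold the values for which they were named. Over all 9 genes, as a description, the log2FC was negative for 8 of the 9 in males (median -1.01) and positive for 7 of the 9 in females (median 0.40), and the difference was positive for all 9 (median 1.12, against 0.02 over all genes). In the comparison of females with males, 0 of the 7 passed by limma, with a background of 0.0316%. Under an unadjusted p of 0.05 there was 1 (3.74% of all genes were), *C1ra* with 0.51 (SE 0.19, adjusted p = 0.882). *C4b* had 1.52 (SE 0.64) in this comparison. With unequal errors this value is not independent of the one for which *C4b* was named, and it is given without a p. The SE of this comparison appears to hold the difference of KO from WT too, so it is no measure of the spread between libraries alone.

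Beyond these, 24 of 48 other complement genes had a value. In males 6 of the 24 passed an adjusted p of 0.05, where 5.47% of all genes passed. Of the 6, 5 were lower and 1 higher (3.17% and 2.30% of all genes). In females 0 passed by limma (1.42% of all genes did), with 4 under an unadjusted p of 0.05 (15.9% of all genes). For the difference between the sexes 0 passed (0.543% of all genes did), with 6 under an unadjusted p (10.2% of all genes). For the mean of both sexes 5 passed (9.07% of all genes did), 4 lower (5.20% of all genes) and 1 higher. The median log2FC was -0.48 in males and 0.20 in females, and the difference was positive for 19 of the 24, with a median of 0.53.

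Among the 7 genes with a value that start the classical and lectin pathways, *C1s1*, *C2* and *Colec12* fell in males. *C1s1*, the protease that follows C1r, was estimated at 234 CPM in WT males, 120 in KO males, 216 in WT females and 257 in KO females. The order of the groups was that of *C1ra*. The log2FC was -0.96 (SE 0.18, adjusted p = 0.00963) in males and 0.25 (SE 0.18, adjusted p = 0.517) in females, with a difference of 1.21 (SE 0.26, adjusted p = 0.0598), and 24.3% of its 50-base stretches occur in *C1s2*. *C2*, which supplies the catalytic part of the classical convertase, had -2.03 (SE 0.52, adjusted p = 0.0398) in males and -0.78 (SE 0.47, adjusted p = 0.441) in females at a mean of 0.978 CPM, and 58.0% of its stretches are shared with an overlapping gene model. *Colec12*, a scavenger collectin, had -0.46 (SE 0.12, adjusted p = 0.0400) in males and -0.27 (SE 0.12, adjusted p = 0.281) in females. For the mean of both sexes *C2* (-1.41, SE 0.35, limma adjusted p = 0.0273) and *Colec12* (-0.36, SE 0.08, adjusted p = 0.0190) passed as well. *C1s1* did not pass for this mean (-0.35, SE 0.13, adjusted p = 0.0953). *Masp1*, *C1rl*, *Colec11* and *C4a* did not pass in any comparison.

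Of the 6 receptors with a value, *C5ar2*, which binds C5a, was lower in male KO, with -1.72 (SE 0.39, adjusted p = 0.0239) in males, -0.93 (SE 0.35, adjusted p = 0.201) in females and -1.33 (SE 0.26, adjusted p = 0.00915) for the mean of both sexes. The other 5 receptors (*C3ar1*, *C5ar1*, *Itgam*, *Itgb2* and *Cd93*) had negative values in males, from -1.62 to -0.68, and positive values in females, from 0.67 to 1.09, and none passed in any comparison. *Itgam* and *Itgb2* form complement receptor 3 of myeloid cells, and their differences between the sexes were 1.58 (SE 0.68, adjusted p = 0.434) and 2.71 (SE 0.98, adjusted p = 0.309).

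Of the soluble regulators, *Clu*, clusterin, the most abundant complement gene measured with a mean of 1136 CPM, had -0.51 (SE 0.22, adjusted p = 0.189) in males and 0.44 (SE 0.22, adjusted p = 0.341) in females. *Cpn1*, the catalytic chain of carboxypeptidase N, which inactivates C3a and C5a, was the one gene of the 24 that passed as higher in males. Its log2FC was 1.56 (SE 0.37, adjusted p = 0.0276) in males, 0.68 (SE 0.33, adjusted p = 0.338) in females and 1.12 (SE 0.25, limma adjusted p = 0.0164) for the mean of both sexes. In males 7 of the 24 had a positive value.

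Among 7 membrane regulators, *Cd46*, a cofactor for the breakdown of C3b, was lower in male KO with -1.24 (SE 0.34, adjusted p = 0.0491) and -0.40 (SE 0.35, adjusted p = 0.610) in females. *Cr1l*, which encodes CRRY, the regulator that takes the place of CD46 and CD55 in much of the mouse, was -0.26 (SE 0.09) in males and -0.25 (SE 0.09) in females, past the threshold only for the mean of both sexes (-0.25, SE 0.06, adjusted p = 0.0284). Of its 50-base stretches 16.8% also occur in *Crry-ps* or *Gm49375*. The protectins *Cd59a* and *Cd59b*, which block the membrane attack complex, had positive values in both sexes, from 0.21 to 0.63, and did not pass. Of the alternative and terminal pathway genes, *Cfp* and *C8g* had a value and did not pass, and *Cfb*, *Cfd*, *Hc* and *C9* had none.

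**Figure D3:**
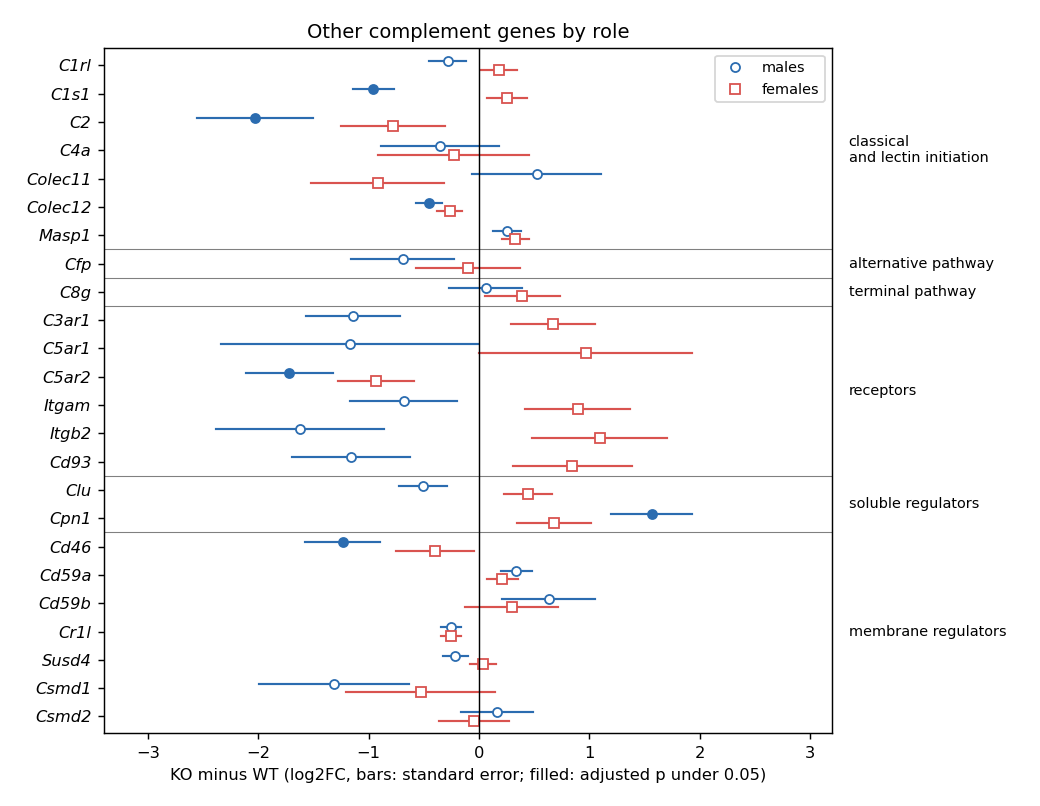
Log2FC of KO against WT (horizontal axis, bars are the standard error) of the 24 other complement genes with a value, by role, in males (circles) and females (squares), filled where the adjusted p is under 0.05. The 6 filled points are all male: *C1s1*, *C2*, *Colec12*, *C5ar2* and *Cd46* lower and *Cpn1* higher.

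*Cr2*, *Cr1l* and *Cd46* lie in 1 cluster of complement regulators on chromosome 1. All 11 genes within 250 kb of *Cr2* had a negative log2FC in males, with a median of -0.95, while 1 of them, *Cd46*, passed the test (5.47% of all genes did). In females their median was -0.40. *Cr1l*, the nearest at 5225 bases, had -0.26 in males against -1.42 for *Cr2*, and *Cd34*, a cell surface sialomucin 175532 bases away, was -0.06 (SE 0.16) in males and rose in females, with 0.72 (SE 0.15, adjusted p = 0.0354). Around *C4b*, within the major histocompatibility region of chromosome 17, 25 genes had a value, with a median of -0.07 in males and -0.11 in females. Of these *Tnxb*, which encodes the matrix protein tenascin X and stands 8565 bases from *C4b*, fell in both sexes, with -2.33 (SE 0.21, adjusted p = 5.29e-05) in males and -1.21 (SE 0.18, adjusted p = 0.00455) in females, and *C2* was lower in males. The other 23 genes passed neither test (5.47% of all genes passed in males and 1.42% in females). None of the 25 passed for the difference between the sexes (0.543% of all genes did).

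Closest to *C4b* in its 2 genotype effects and sex coefficient, by Euclidean distance among genes with a mean of at least 1 CPM, were *Spp1* (osteopontin, distance 0.50), *Serpina3n* (a serine protease inhibitor, 1.12), *Col23a1* (a transmembrane collagen, 1.15), *Bpifb1* (1.28) and *Tnn* (tenascin W, 1.45). Their log2FC lay between -3.76 and -2.75 for males and between 0.13 and 1.52 for females, with an SE in males from 0.47 to 2.00. Closest to *Cr2* were *Sv2b* (0.18), *Vcam1* (0.21), *Lrp4* (0.24), *Actn2* (0.27) and *Gpc3* (0.27), with log2FC between -1.54 and -1.16 for males and between -1.28 and -1.02 for females. Likeness was computed over 3 values from the same libraries and is a description.

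Genes known to be induced by interferon had values of the same signs as *C1ra* and *C1s1*. All 18 listed had a negative log2FC in males, with a median of -0.81, and 4 passed the test there: *Stat2* -0.89 (SE 0.14, adjusted p = 0.00377), *Ifit3* -1.54 (SE 0.32, adjusted p = 0.0141), *Oasl2* -1.26 (SE 0.22, adjusted p = 0.00712) and *Psmb8* -1.24 (SE 0.33, adjusted p = 0.0464). Over all genes 5.47% passed in males in either direction, and 3.17% were lower. In females 14 of the 18 were positive, with a median of 0.29. There 0 passed by limma (1.42% of all genes did), with 5 under an unadjusted p of 0.05, which 15.9% of all genes were. The difference between the sexes was positive for all 18. *Stat2*, a transcription factor of the type I interferon response, passed this test with 1.23 (SE 0.20, adjusted p = 0.0212), as 0.543% of all genes did in either direction. *B2m*, the most abundant of the list, had -0.26 (SE 0.22) in males and 0.91 (SE 0.22, adjusted p = 0.0602) in females. Summed over the list, the estimated level was 528 CPM in WT males, 350 in KO males, 468 in WT females and 679 in KO females (434, 291, 570 and 835 in the other reading of the sex coefficient), and its part in the complement values was not tested.

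Acute phase and NF-kB genes had values of the same signs, negative for 10 of the 10 with a value in males (median -0.75), positive for 6 of the 10 in females (median 0.18), and with a positive difference between the sexes for all 10 (median 0.84). Of these, *Icam1* (-1.81, SE 0.36, adjusted p = 0.0117) and *Vcam1* (-1.26, SE 0.34, adjusted p = 0.0489), both adhesion molecules for leukocytes, fell in males. There 3.17% of all genes were lower and 5.47% passed in either direction. *Stat3*, the most abundant, did not pass. *Vcam1* was negative in females as well, with -1.19 (SE 0.34, limma adjusted p = 0.106), and its difference between the sexes was 0.07 (SE 0.49). Keratocyte, pigment and epithelial genes had negative medians in both sexes. In the mean of both sexes, 5.20% of all genes were lower at an adjusted p under 0.05, and 9.07% passed in either direction. All 7 stromal keratocyte genes with a value were lower at this threshold, with a median of -0.73. They ran from *Dcn* with -0.37 (SE 0.09, limma adjusted p = 0.0200) to *Ptgds* with -1.21 (SE 0.30, adjusted p = 0.0264), and *Col1a2*, the most abundant, had -0.65 (SE 0.15, adjusted p = 0.0188). Iris and pigment genes had a median of -2.25 for the same mean, where *Dct*, *Tyr* and *Oca2* of 6 passed as lower (5.20% of all genes did). The summed level of the keratocyte list was 17476 CPM in WT males, 12320 in KO males, 17683 in WT females and 9615 in KO females, lower in KO of both sexes as *Cr2* was. That of the pigment list was 35.9, 14.2, 46.5 and 6.34 CPM in the same order, and that of 7 epithelial genes, of which *Krt5* was the most abundant and none passed in any comparison, 182, 89.9, 76.2 and 34.2 CPM. The part of these cells in the values of *Cr2* or *C4b* was not tested. Apart from *Slc4a11*, the 9 endothelial markers lay between -0.27 and 0.30 for males and between -0.21 and 0.36 for females, and none of the 9 passed.

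**Figure D4:**
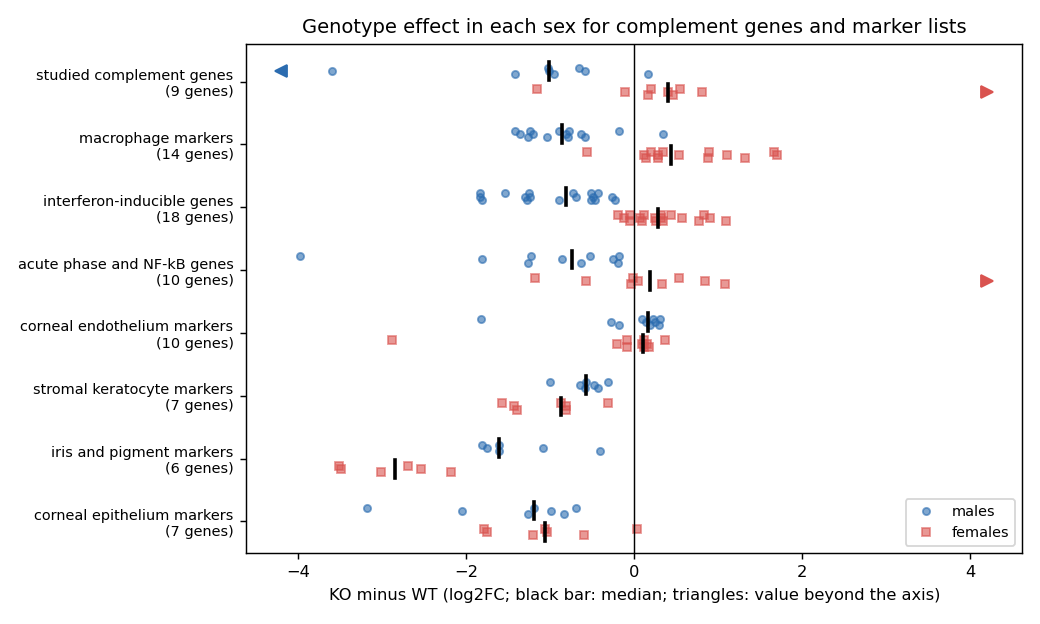
Log2FC of KO against WT in males (circles) and females (squares) for each gene of the studied complement set and of 7 marker lists, with the median as a black bar and triangles for values beyond the axis. Complement, macrophage and interferon-inducible genes have negative medians in males (-1.01, -0.85 and -0.81) and positive ones in females (0.40, 0.44 and 0.29), and keratocyte, pigment and epithelial genes have negative medians in both sexes.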

How the data were processed

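RNA of 12 libraries (paired-end reads, stranded total RNA of low input) was aligned by the authors with HISAT2 to GRCm38 (per the submitters' processing notes), converted to CPM with TMM normalization and fitted with limma and voom weights for 2 genotypes by 2 sexes. Versions, counter, strand setting and annotation release are not given in the sources used here. The authors deposited 3 tables of coefficients over the same 15838 genes: the deposited log2FC and mean level have log2 units, the deposited moderated t is a score, and each deposited p-value stands beside one adjusted by Benjamini-Hochberg. These tables are the authors' own comparisons and hold no value per library, so depth is unknown and no counting interval can be given.

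The SE is the log2FC over the moderated t. At the median gene the interaction had 1.42 times the SE of genotype, and for 4 Y-linked genes 8.04 to 8.29 times, so the genotype table was taken to hold the KO effect in males and the interaction table how far the effect in females exceeds it. The effect in females is their sum, its squared SE the difference of their squared SE, and the mean effect the genotype coefficient plus 0.5 of the interaction. Their p came from 13.8 degrees of freedom, adjusted over all genes. The sex table has 14.6 degrees of freedom and comes from another fit. At the median its SE was 1.06 times that of the mean KO effect for genes with no called mean effect. For genes with a called mean effect it was 1.50 times. It was therefore read as a fit without genotype, whose coefficient is the mean difference over both genotypes and whose SE also holds the difference of KO from WT. Estimated group levels use the mean and the 3 coefficients. The derivations were tested on simulated data (R 4.3.3, limma 3.58.1; Python 3.11.15, scipy 1.17.1). Positions and transcripts are from GENCODE M21, promoters from RefSeq (GRCm38.p6), and the coding alignment from Biopython 1.88.

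The members and lists were chosen with earlier results of these data known. Named genes were all members, other complement genes past an adjusted p of 0.05, genes within 250 kb of *C4b* or *Cr2*, the 5 genes nearest to each in effect, *Slc4a11*, and marker genes past 0.05 or most abundant in their list; further genes are named where a count needed them. One complement gene and one cell type marker were left out of the lists and are not reported here. Alternatives were a fold threshold, the Benjamini-Yekutieli adjustment, minima of 1 and 10 CPM, 1 adjustment over the 5 comparisons, another reading of the sex coefficient and another likeness.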

Additional observations from a re-analysis of the deposited data

Results flagged for a closer look

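The genotype effect of *Stat2* differed between the sexes in the interaction test. The effect in females minus that in males was 1.23 (SE 0.20, limma adjusted p = 0.0212), from -0.89 (SE 0.14) in males and 0.34 (SE 0.14) in females. For *C4b* the same difference was 4.40 (SE 0.62), which is the value for which the gene was named and is given as a description, with no test. Values per library were not used here, so how many libraries show each direction was not tested.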

How the results depend on the processing

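No genotype effect changed direction, and 38 of 52 summary values kept within 1.5 times the reported one. These include counts that were 0 and stayed 0, as for the other complement genes in females. Under the Benjamini-Yekutieli adjustment, the other complement genes called in males went from 6 to 0 and for the mean of both sexes from 5 to 0, and of the 9 complement genes those called for the difference between the sexes went from 1 to 0 (*C4b*) and for the mean from 2 to 1, counts that include the values for which *C4b* and *Cr2* were named. *C1ra* lost its call in males under this adjustment, a fold threshold and 1 adjustment over all comparisons. With a mean of at least 10 CPM, other complement genes called in males fell to 2 and for the mean to 3. For the difference between the sexes 2 of the 9 and 1 other gene (*C1s1*) were called, because fewer genes were tested. The 2 were *C1ra* and *C4b*, the latter by the value for which it was named. With 1 adjustment over all comparisons, other complement genes called were 3 in males, 3 for the mean and 1 for the difference. The same 2 of the 9, *C1ra* and *C4b*, were called for the difference. With a log2FC beyond 1 in size, 3 other complement genes were called for the mean. Read as the difference in WT, the sex coefficient put 8 instead of 7 of the 9 genes lowest in male KO, and turned the estimated level of WT females minus WT males (log2) from negative to 1.75 for *C3*, 1.52 for *C4b*, 0.12 for *Cr2*, 0.18 for *Serping1*, 0.0078 for *Cd55* and 0.51 for *C1ra*, while it stayed negative for the C1q chains. Of the 10 genes nearest to *C4b* and *Cr2*, 4 remained when the genotype effects alone were used. All 4 were near *C4b* (*Spp1*, *Serpina3n*, *Bpifb1* and *Tnn*), and every gene nearest to *Cr2* was replaced. Of the genotype and sex coefficients of single genes under an alternative, 25 lost their call, 2 gained it and 224 were as reported. Those as reported include genes that were called neither before nor after. Leaving out a library was not run, and no paired analysis was possible because the tables hold coefficients and no value per library.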
